A study of Homo sapiens with 4 samples.

Results

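The genes of mitosis and the spindle comprised 47 genes that carry a cell from the entry into mitosis to cytokinesis. They were chosen by name for their function, with earlier results of these data known. Their probes were found on the arrays by RefSeq accession or gene symbol. Of these 47 genes, 46 had a matched probe, among 18755 named genes with a value on every array. For UBE2C, the ubiquitin-conjugating enzyme of the anaphase promoting complex, no probe was matched in this way, and it was not analysed here. This does not show that the arrays lack a probe of UBE2C. The samples were cultures of Hs746T, a human gastric carcinoma cell line that carries both an exon-skipping mutation of MET and an amplification of MET, grown in DMEM with fetal bovine serum. There were 4 conditions: cells given the solvent DMSO, cells given the MET kinase inhibitor PHA665752, cells transfected with a scrambled siRNA (sc siRNA) and cells transfected with an siRNA against MET (MET siRNA). The siRNAs were delivered with Lipofectamine 2000 and cells were harvested 48 h later, whereas the dose of PHA665752 and the time of treatment for the arrays were not given in the sources used here. Each condition was 1 array of 1 RNA sample, read in 1 colour, so no test, p-value or spread between replicates could be had, and a difference between arrays cannot be told apart from a difference between these cultures.

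A dividing cell enters mitosis when cyclin B and CDK1 become active, and CDC25 phosphatases, polo-like and Aurora kinases promote this step. Kinetochores assembled on the centromeres capture the microtubules of the spindle, and the spindle checkpoint holds anaphase back until all chromosomes are attached. The messenger RNAs of most of these proteins are made mainly in the late part of the cell cycle, and they serve as markers of dividing cells. In RNA from a whole culture, fewer cells in this part of the cycle and less RNA per cell cannot be told apart.

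All 46 genes were well above background on every array. Their 57 probes included 8 that were spotted 10 times (those of CCNA2, CCNB1, CDK1, INCENP, BIRC5, CENPE, KIF20A and TOP2A), and no spot was saturated. The 75th percentile of the processed signal, a background-corrected fluorescence in arbitrary units by which each array was scaled, lay between 831 and 990 on the 4 arrays, and 67.4% to 68.2% of probes were well above background on 3 arrays, against 61.1% on the MET siRNA array. Between spots of the same probe on an array the SD was 0.0520 to 0.0582 on the log2 scale (median over 743 probes), which puts the spot noise of a log2 ratio of 2 arrays at 0.0752 to 0.0788. That noise covers the array alone and not the cells. MET itself had processed signals of 221451 (DMSO), 100492 (PHA665752), 190010 (sc siRNA) and 77853 (MET siRNA). Its log2 ratio was -0.93 for PHA665752 over DMSO and -1.33 for MET siRNA over sc siRNA. Of the epithelial markers, EPCAM, KRT8, KRT18 and CLDN4 were well above background on every array, KRT20 on none and CDH1 on 3 of the 4. The T cell marker CD3E was well above background on no array, and PTPRC, a marker of all leukocytes, was dim at 37.8 with DMSO. Of the other leukocyte and endothelial markers, CDH5 was dim at 88.5, whereas CD68 (7551) and PECAM1 (1846) were not, and the mesenchymal markers FN1, CDH2 and SPARC were well above background on every array. Some markers differed with PHA665752 over DMSO. The log2 ratios of 9 epithelial and gastric markers ran from -0.56 for CLDN4 to 1.70 for MUC1, with MUC1 alone past 2-fold, those of the 3 mesenchymal markers were 0.26 for CDH2, 1.33 for SPARC and 1.96 for FN1, and those of 4 leukocyte and endothelial markers ran from -2.39 for PECAM1 to 0.15 for CD68. The part of these differences in the results on mitosis and spindle genes was not tested.

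With PHA665752, 42 of the 46 genes were lower than with DMSO by more than 2-fold and 0 were higher. Among all 14322 genes with a ratio, 8.04% were lower and 13.1% higher by more than 2-fold. The median log2 ratio of the 46 genes was -1.71, a level 3.26-fold lower, and the middle 50% of them lay between -1.99 and -1.49. Over all genes the median was 0.075 and the middle 50% lay between -0.37 and 0.58. Of the 46 genes, 38 lay below -1.32, the 5th percentile of all genes. The 4 genes that were not lower by more than 2-fold were BUB3, KIF20A, CDC25B and KIF18A, and the last pair had ratios above 0. That of CDC25B turned to -0.09 when arrays were scaled by their 50th percentile, and that of KIF18A fell to 0.043 under an alternative.

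**Figure D1:**
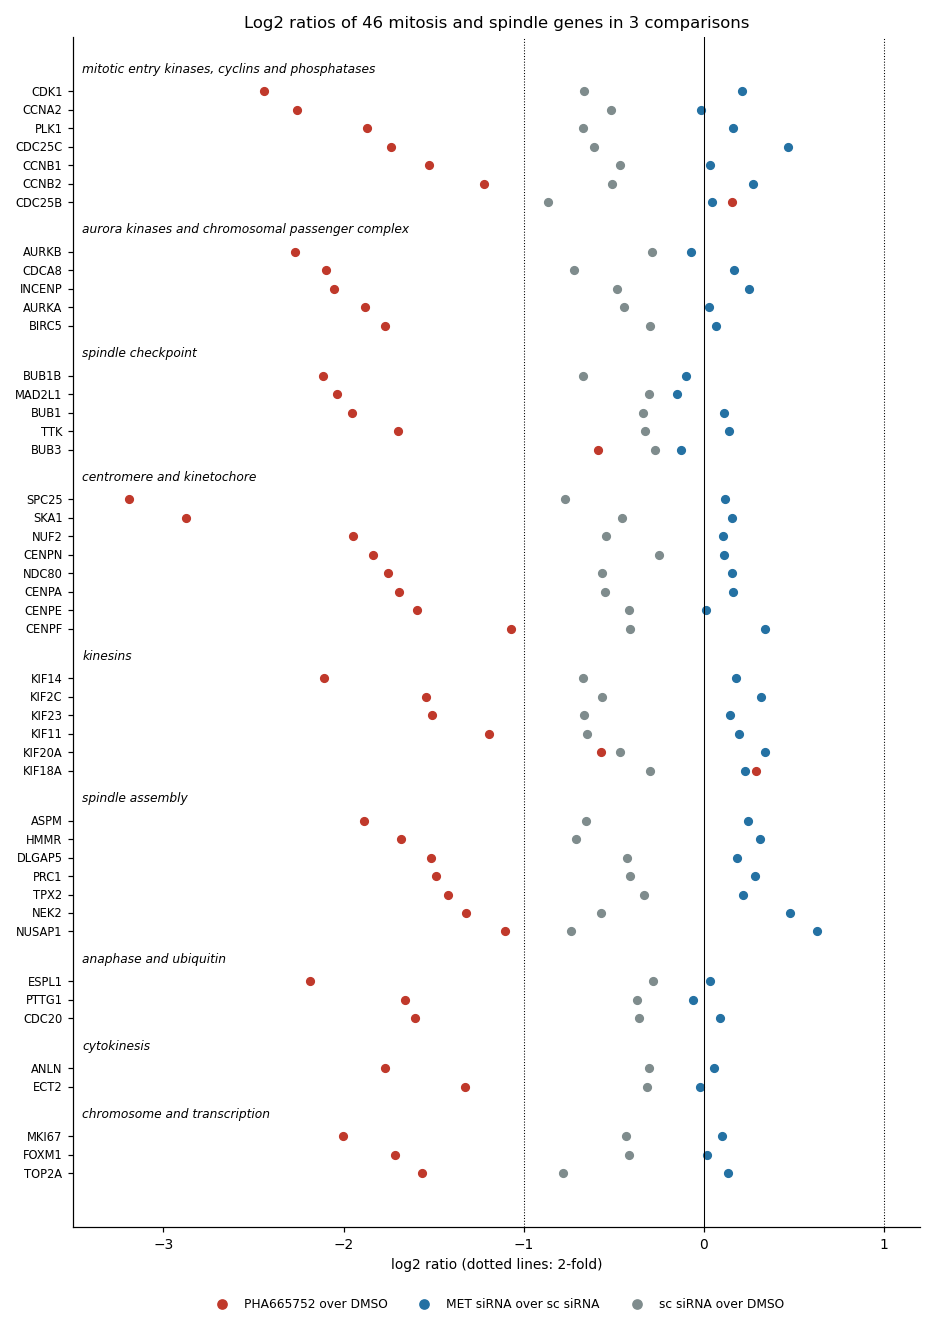
Log2 ratio (x axis) of each of 46 mitosis and spindle genes, 1 gene per line and grouped by role, for PHA665752 over DMSO (red), MET siRNA over sc siRNA (blue) and sc siRNA over DMSO (gray), with 1 array per condition and dotted lines at 2-fold. The red points of 42 genes lie left of the dotted line, from -3.19 for SPC25 to -1.07 for CENPF, while no blue or gray point passes 2-fold.

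The largest decreases were those of SPC25 and SKA1, both of the outer kinetochore. SPC25, a subunit of the NDC80 complex that binds microtubules, had processed signals of 5558 (DMSO), 525 (PHA665752), 2737 (sc siRNA) and 3068 (MET siRNA). It was thus lowest by far with PHA665752, and its log2 ratio to DMSO of -3.19, 9.13-fold lower, ranked 50th from the lowest among all 14322 genes. SKA1, which couples kinetochores to the ends of microtubules, had signals of 875, 103, 535 and 615 in the same order of arrays. Its log2 ratio to DMSO was -2.88 with PHA665752, 7.34-fold lower, which ranked 84th among all genes. On both siRNA arrays the 2 genes lay between the DMSO and the PHA665752 array.

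The promoters of 40 of the 47 genes, taken from RefSeq on the GRCh38.p14 assembly as 250 bases before to 50 bases after the start of transcription, were searched for 3 motifs on both strands. The cell cycle homology region or CHR element (letters TTTGAA or TTCGAA, of which TTCGAA reads the same on both strands) and the CCAAT box (letters CCAAT) are known from promoters of genes expressed in G2 and mitosis. E2F sites (letters TTTCCCGC, TTTGGCGC, TTTCGCGC or TTTGCCGC) are known from promoters of genes expressed before and during DNA synthesis. Motifs of different kinds cannot share more than 1 base, whereas motifs of the same kind on opposite strands can. The promoters shown are those of the 4 genes with a CHR element whose ratio of PHA665752 over DMSO was lowest, followed by those of the 2 genes with a ratio above 0, which were chosen after their values were seen. Capitals mark the letters of a motif on either strand.
SPC25, chr2:168890381-168890680, minus strand: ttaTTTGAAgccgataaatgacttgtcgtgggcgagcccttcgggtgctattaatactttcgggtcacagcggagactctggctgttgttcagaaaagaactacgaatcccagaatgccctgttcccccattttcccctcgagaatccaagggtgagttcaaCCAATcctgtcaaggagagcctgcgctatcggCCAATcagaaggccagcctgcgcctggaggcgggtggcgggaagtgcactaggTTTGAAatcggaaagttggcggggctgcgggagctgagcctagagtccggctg
SKA1, chr18:50374796-50375095, plus strand: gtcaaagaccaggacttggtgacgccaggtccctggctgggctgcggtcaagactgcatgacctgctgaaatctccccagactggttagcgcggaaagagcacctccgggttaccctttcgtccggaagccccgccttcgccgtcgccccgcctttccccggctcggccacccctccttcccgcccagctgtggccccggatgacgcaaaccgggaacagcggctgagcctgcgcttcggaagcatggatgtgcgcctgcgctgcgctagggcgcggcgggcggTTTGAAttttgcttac
CDK1, chr10:60778081-60778380, plus strand: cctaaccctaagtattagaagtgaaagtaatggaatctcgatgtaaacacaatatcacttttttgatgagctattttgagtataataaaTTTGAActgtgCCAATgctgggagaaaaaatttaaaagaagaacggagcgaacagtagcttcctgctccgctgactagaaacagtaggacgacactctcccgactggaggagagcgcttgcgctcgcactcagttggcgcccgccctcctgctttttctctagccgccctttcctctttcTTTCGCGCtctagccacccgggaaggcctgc
ESPL1, chr12:53268049-53268348, plus strand: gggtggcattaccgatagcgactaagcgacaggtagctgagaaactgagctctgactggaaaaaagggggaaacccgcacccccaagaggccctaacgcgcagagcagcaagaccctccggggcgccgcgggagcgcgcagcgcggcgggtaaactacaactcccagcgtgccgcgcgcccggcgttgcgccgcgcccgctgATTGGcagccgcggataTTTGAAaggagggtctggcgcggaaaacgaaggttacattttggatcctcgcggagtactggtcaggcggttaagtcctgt
CDC25B, chr20:3786701-3787000, plus strand: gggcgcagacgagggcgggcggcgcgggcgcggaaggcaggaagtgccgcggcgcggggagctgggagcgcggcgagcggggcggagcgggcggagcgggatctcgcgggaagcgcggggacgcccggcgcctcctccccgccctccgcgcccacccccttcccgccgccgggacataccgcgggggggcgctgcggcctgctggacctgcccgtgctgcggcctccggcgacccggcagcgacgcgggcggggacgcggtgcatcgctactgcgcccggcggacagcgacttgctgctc
KIF18A, chr11:28108107-28108406, minus strand: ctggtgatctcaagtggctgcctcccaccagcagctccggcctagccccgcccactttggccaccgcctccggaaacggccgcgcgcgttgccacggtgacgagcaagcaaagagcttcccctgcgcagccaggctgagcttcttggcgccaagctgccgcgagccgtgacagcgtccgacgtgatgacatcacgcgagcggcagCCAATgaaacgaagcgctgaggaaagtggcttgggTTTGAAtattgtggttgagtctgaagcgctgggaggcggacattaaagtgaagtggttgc

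In the SPC25 promoter a CHR element lay across the start of transcription, from base -3 to base 3, behind a pair of CCAAT boxes that began at -88 and -56, and a further TTTGAA stood at the far end of the window, at -247. The CHR element of SKA1 began 35 bases after the start and that of ESPL1 31 bases before it, where ESPL1 had a CCAAT box in reverse (ATTGG) at -48. CDK1 held all 3 kinds of motif, a CHR element at -161, a CCAAT box at -150 and the E2F letters TTTCGCGC at 20. CDC25B held none of the 3, whereas KIF18A had a CCAAT box at -45 and a CHR element at -10. A match of letters is a description and not a site shown to be bound.

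Over the 40 promoters, 30 (75%) held a CHR element, against 13.5% of 15843 promoters of protein-coding genes. A CCAAT box was found in 31 (77.5%, against 36.4%), and both together in 25 (62.5%, against 5.57%). E2F letters were found in 3 (7.5%, against 4.44%), those of CDK1, CENPA and NUSAP1. Of the 40 CHR elements in these 30 promoters, 31 began between 100 bases before and 50 bases after the start, in 27 of the genes, whereas 5.45% of all promoters held one there. The 4 promoters without any of the letters were those of CDC25B, CDC25C, CENPE and KIF2C. DNA replication genes, which act earlier in the cycle, were searched in the same way, with a CHR element in 1 of 27 promoters (3.70%) and E2F letters in 16 (59.3%), while 15 (55.6%) held a CCAAT box. Among the mitosis and spindle genes, the median log2 ratio of PHA665752 over DMSO was -1.80 for the 30 genes with a CHR element, with a range of -3.19 to 0.29, and -1.57 for the 10 without, with a range of -2.27 to 0.16. The ranges overlapped over most of their length. Whether the presence of the letters goes with the size of the decrease was not tested.

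**Figure D2:**
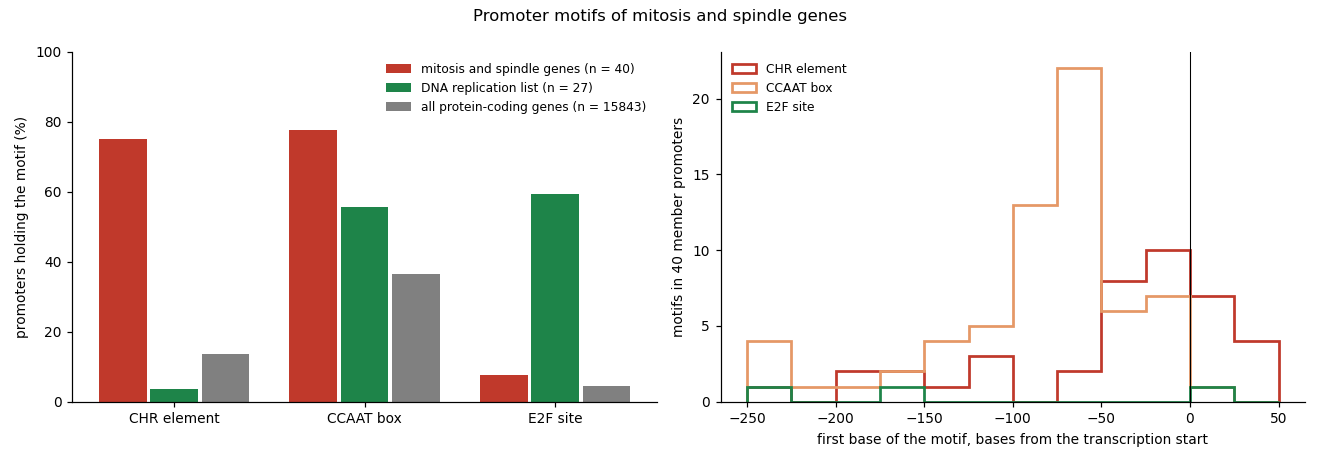
Left, share of promoters (y axis, %) that hold each motif among 40 mitosis and spindle genes (red), 27 DNA replication genes (green) and 15843 protein-coding genes (gray); right, number of motifs (y axis) by the position of their first base from the start of transcription (x axis, bases) in the 40 promoters. CHR elements are in 75% of the mitosis and spindle promoters and 3.70% of the replication promoters, and 31 of the 40 elements begin from 100 before to 50 after the start.

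Among the kinases, cyclins and phosphatases of mitotic entry, 6 of 7 genes were past 2-fold lower with PHA665752, with a median log2 ratio of -1.73. CDK1, the kinase at the center of mitotic entry, had processed signals of 17053 (DMSO), 2708 (PHA665752), 9037 (sc siRNA) and 10804 (MET siRNA). Its log2 ratio of PHA665752 over DMSO was -2.44 with a standard error of 0.0194 over its spots, 5.43-fold lower. Its partner cyclins were lower to unlike degrees. CCNA2, the A-type cyclin that acts in S phase and G2, had a ratio of -2.26, while the B-type cyclins CCNB1 and CCNB2 had ratios of -1.52 and -1.22. CCNB1 was also read by another probe, which gave -1.04. PLK1, the polo-like kinase that promotes entry and the maturation of spindle poles, had signals of 987, 233, 519 and 600 on the DMSO, PHA665752, sc siRNA and MET siRNA arrays, and its ratio was -1.87.

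The CDC25 phosphatases remove inhibitory phosphates from CDK1, and they differed. CDC25C had signals of 775, 201, 425 and 607 and was 3.33-fold lower with PHA665752 than with DMSO. CDC25B had signals of 3342 (DMSO), 3208 (PHA665752), 1537 (sc siRNA) and 1640 (MET siRNA). It was thus near its DMSO level with PHA665752, with a log2 ratio of 0.16 that turned to -0.09 with scaling by the 50th percentile, and was low on both siRNA arrays instead. Its ratio of sc siRNA over DMSO, -0.87, was the lowest of the 46 genes in that comparison.

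**Figure D3:**
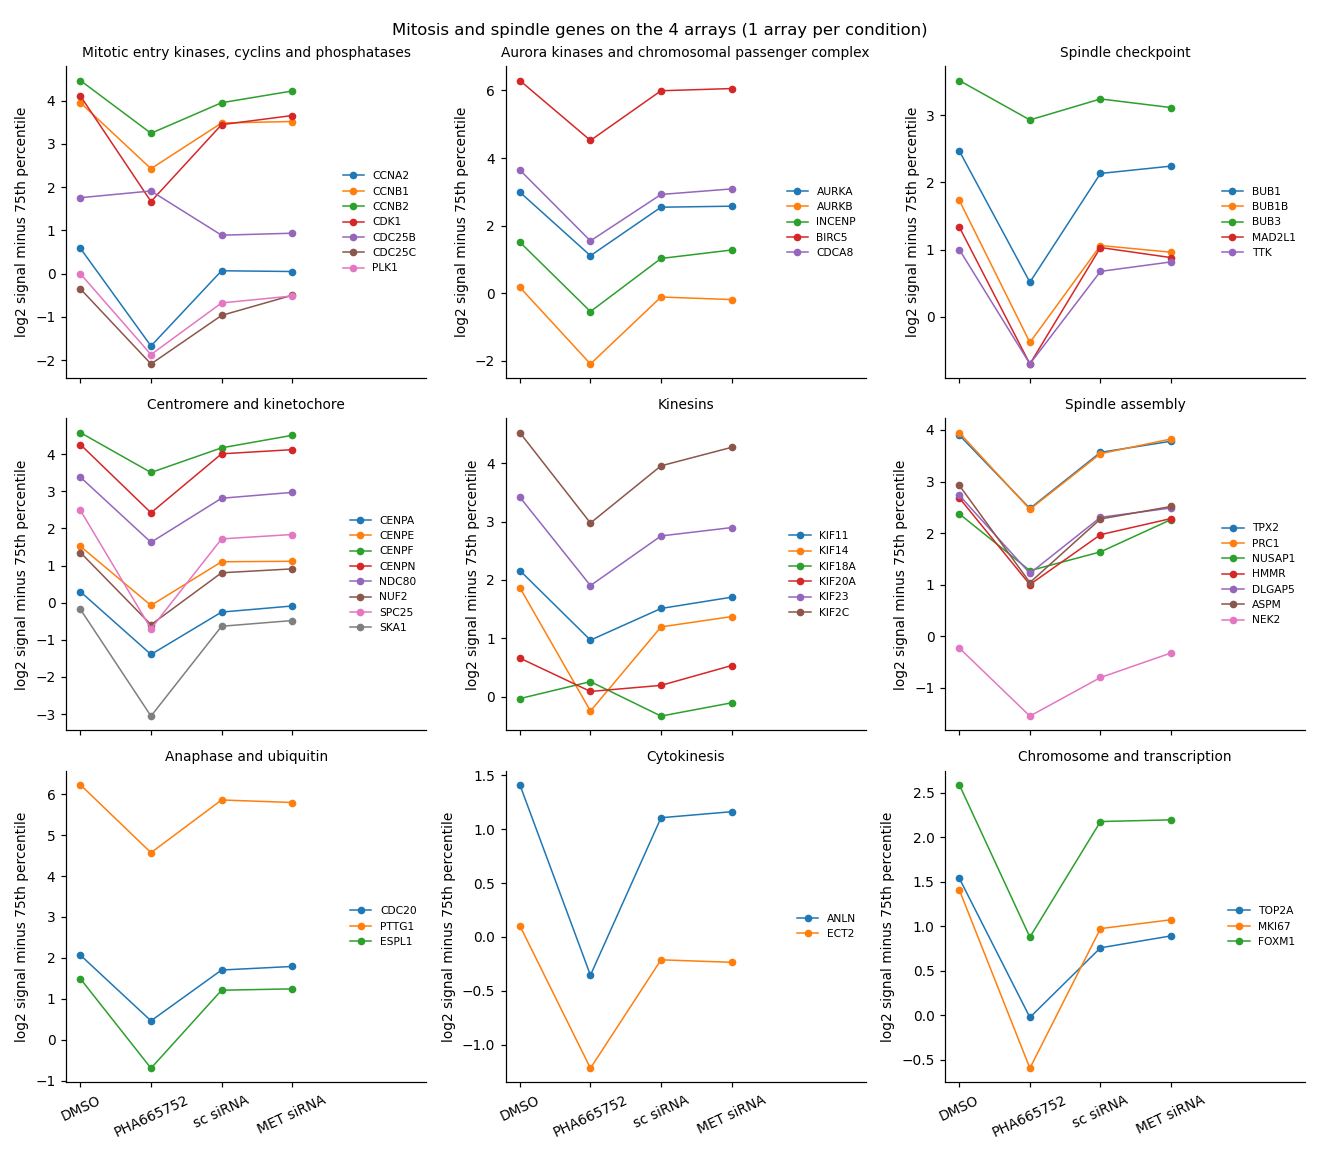
Level on the log2 scale relative to the 75th percentile of its own array (y axis) of 46 mitosis and spindle genes on the DMSO, PHA665752, sc siRNA and MET siRNA arrays (x axis), 1 array per condition and 1 panel per role, with lines that only join the points of the same gene. In 44 genes the DMSO array is highest and the PHA665752 array lowest, with CDC25B (whose order of DMSO and PHA665752 turned with scaling by the 50th percentile) and KIF18A as the exceptions; heights of different genes are those of different probes and are not comparable.

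All 5 genes of the Aurora kinases and the chromosomal passenger complex were past 2-fold lower with PHA665752, with ratios in a narrow range from -2.27 to -1.77. AURKB, the Aurora kinase of the complex that corrects faulty attachments of chromosomes, had processed signals of 1120 (DMSO), 200 (PHA665752), 770 (sc siRNA) and 755 (MET siRNA). Its ratio of MET siRNA over sc siRNA was -0.07, while PHA665752 was 4.82-fold below DMSO. Its partners in the complex were INCENP, the scaffold, at -2.05, CDCA8 (borealin) at -2.10 and BIRC5 (survivin) at -1.77. AURKA, the Aurora kinase of the spindle poles, had a ratio of -1.88.

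Of the 5 spindle checkpoint genes, 4 were lower by more than 2-fold. BUB1B, which encodes the checkpoint protein BUBR1, had processed signals of 3288, 655, 1732 and 1669 on the DMSO, PHA665752, sc siRNA and MET siRNA arrays, and its log2 ratio of PHA665752 over DMSO was -2.11. MAD2L1, the subunit that binds CDC20 at unattached kinetochores, had a ratio of -2.04, and the kinases BUB1 and TTK had ratios of -1.95 and -1.70. BUB3, the partner that brings BUB1 and BUBR1 to kinetochores, had signals of 11312, 6495, 7852 and 7418, so that it was lowest with PHA665752 as well, at a ratio of -0.59. A probe of BUB3 that was matched to another RefSeq transcript gave a ratio of -1.20, so that the 2 probes lay on different sides of 2-fold.

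All 8 centromere and kinetochore genes were past 2-fold lower with PHA665752, with a median log2 ratio of -1.80. Besides SPC25 at -3.19, the NDC80 complex comprises NDC80 and NUF2, with ratios of -1.75 and -1.95, and SPC24, which is not among the 46 genes and had a ratio of -2.20. SPC25 thus had the lowest ratio of the complex with the inhibitor. Their ratios of MET siRNA over sc siRNA were 0.12 (SPC25), 0.16 (NDC80), 0.11 (NUF2) and 0.42 (SPC24). CENPA, the histone H3 variant that marks centromeres, had a ratio of -1.69, and CENPN, which binds it, had -1.84. The other probes of CENPN gave -1.91 and -1.10, the latter from a dim probe with a signal of 48 with DMSO. CENPE, a kinesin that moves chromosomes to the spindle equator, had a ratio of -1.59. CENPF, a large protein of the kinetochore corona, had signals of 23710, 9717, 14989 and 19553. Its decrease was the smallest of the 8, with a ratio of -1.07, and its other probe gave -0.96.

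The kinesin motors were the most mixed of the groups, with 4 of 6 lower by more than 2-fold with PHA665752. KIF14, a motor of cytokinesis, had the lowest log2 ratio at -2.11, followed by KIF2C (MCAK, which takes microtubules apart) at -1.54, KIF23 (of the central spindle) at -1.51 and KIF11 (Eg5, which pushes spindle poles apart) at -1.19. KIF20A, a motor of the central spindle, had processed signals of 1569 (DMSO), 911 (PHA665752), 953 (sc siRNA) and 1245 (MET siRNA). Its PHA665752 and sc siRNA arrays were thus close to each other, and its ratio of PHA665752 over DMSO was -0.57 with a standard error of 0.0263 over its spots. KIF18A, a motor that dampens the movement of chromosomes at the spindle equator, had signals of 971, 1023, 662 and 801 and was highest of the 4 arrays with PHA665752. Its ratio of 0.29 was the highest of the 46 genes, and its single probe gives no further reading of it. Under an alternative of the processing the ratio fell to 0.043, below the spot noise of 0.0788.

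All 7 genes of spindle assembly were past 2-fold lower with PHA665752, with a median log2 ratio of -1.49. The ratios ran from -1.89 for ASPM, a protein of spindle poles, through -1.68 for HMMR (a spindle protein also known as a hyaluronan receptor), -1.51 for DLGAP5 (which stabilizes kinetochore fibers), -1.49 for PRC1 (which bundles antiparallel microtubules), -1.42 for TPX2 (which activates AURKA) and -1.32 for NEK2 (a kinase that separates centrosomes) to -1.10 for NUSAP1. NUSAP1, which binds microtubules near chromosomes, had processed signals of 5127 (DMSO), 2058 (PHA665752), 2578 (sc siRNA) and 4114 (MET siRNA). After scaling, its sc siRNA level lay nearer to that with PHA665752 than to that with DMSO, while its MET siRNA level lay nearer to DMSO.

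The genes that end mitosis were lower as well. Among those of anaphase, ESPL1 (separase, the protease that opens cohesin rings) had processed signals of 2779, 526, 1920 and 2030 on the DMSO, PHA665752, sc siRNA and MET siRNA arrays and a ratio of PHA665752 over DMSO of -2.19. Its inhibitor securin, PTTG1, had a ratio of -1.66, and CDC20, the activator of the anaphase promoting complex, had -1.61. Of the cytokinesis genes, ANLN (anillin, of the contractile ring) had a ratio of -1.77 and ECT2, which activates RhoA at the cleavage furrow, had -1.32. MKI67, the gene of the Ki-67 antigen by which pathologists score dividing cells, had signals of 2629, 565, 1632 and 1805 and was 4.01-fold lower with PHA665752 than with DMSO, and its 3 probes gave ratios between -2.0 and -1.71. TOP2A, the topoisomerase that untangles chromosomes before anaphase, had a ratio of -1.56. FOXM1, a transcription factor of genes of G2 and mitosis, had signals of 5962, 1568, 3757 and 3932, and its ratio of -1.71 lay at the median of the 46 genes.

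With MET siRNA over sc siRNA, 0 of the 46 genes passed 2-fold in either direction, where 0.696% of 13647 genes were lower and 2.04% higher. The median log2 ratio was 0.14, with the middle 50% between 0.037 and 0.22, against -0.017 over all genes. In this comparison 39 genes had a ratio above 0, and 22 of them exceeded 2 times the spot noise, while none of the 7 below 0 did. Among all 13647 genes, 6416 had a ratio above 0, and 26.0% lay above 0 and 29.0% below 0 by more than 2 times the spot noise. Over the settings tried, 6 to 39 of the 46 genes had a ratio below 0. The sign of the median depended on the scaling of the arrays, and it was -0.16 when each array was scaled by its median over probes well above background, where the median of all genes was -0.31. Relative to the median of all genes, the median of the 46 genes was higher by 0.10 to 0.17 under every scaling and filter that was tried. Scaling by a single value per array shifts all genes alike and cannot change this difference. The ratios were highest for NUSAP1 (0.63), NEK2 (0.48) and CDC25C (0.47), and the lowest were those of the checkpoint genes MAD2L1 (-0.15), BUB3 (-0.13) and BUB1B (-0.10). Another probe of BUB3 gave -0.37, below 0 by more than 2 times the spot noise. For PLK1 the brightest probe gave 0.16 and the other -0.048. The other probes of ASPM, CCNB1, CENPF, KIF23, MKI67 and NEK2 gave ratios above 0. NEK2 had processed signals of 843 (DMSO), 291 (PHA665752), 476 (sc siRNA) and 684 (MET siRNA). All 7 genes of spindle assembly had a ratio above 0 by more than 2 times the spot noise, with a median of 0.28. So did 5 of 6 kinesins (median 0.21) and 0 of the 5 checkpoint genes (median -0.10), where the share over all genes was 26.0%. These counts are those of the main scaling and of the brightest probe of each gene. Under an alternative, ASPM, DLGAP5, PRC1 and TPX2 and the kinesins KIF11, KIF14, KIF18A and KIF23 turned below 0. NUSAP1, NEK2, HMMR, KIF20A and KIF2C stayed above 0 under each. The activity of the MET kinase was not measured by these arrays.

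The comparison with PHA665752 and that with MET siRNA share no array. Across the 46 genes their log2 ratios had a Pearson correlation of 0.205 and a Spearman correlation of 0.328, against 0.516 and 0.536 across 13440 named genes. Without CDC25B and KIF18A the values were 0.278 and 0.353 over 44 genes. These correlations are across genes, which are not independent replicates, and all of them rest on the same 4 arrays.

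Between the 2 controls, sc siRNA over DMSO, 0 of the 46 genes passed 2-fold, where 1.16% of 14274 genes were lower and 2.89% higher. All 46 had a log2 ratio below 0 by more than 2 times the spot noise, as did 29.6% of all genes. The median was -0.47, 1.38-fold lower, with a range from -0.87 for CDC25B to -0.25 for CENPN, and the median of all genes was -0.010. Of the 46 genes, 17 lay below -0.56, the 5th percentile of all genes. The lowest after CDC25B were TOP2A (-0.78), SPC25 (-0.77), NUSAP1 (-0.74), CDCA8 (-0.72) and HMMR (-0.71). Mitotic entry genes and kinesins had the lowest group medians, each -0.61, and those of cytokinesis and the checkpoint the highest, at -0.31 and -0.32. The controls differed in the siRNA, the transfection reagent and the solvent, and these cannot be told apart. Across the 4 arrays, 44 of the 46 genes followed the same order, highest with DMSO, intermediate on both siRNA arrays and lowest with PHA665752. Over all genes, 21.2% were highest on the DMSO array and 27.6% lowest on the PHA665752 array. The share of all genes with the full order was not counted, but it is at most 21.2%, since that order needs the DMSO array to be highest. The order in part repeats the ratios to DMSO given above and is not a further result. Since sc siRNA over DMSO shares an array with each of the other comparisons, its values stand beside theirs and were not correlated with them.

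**Figure D4:**
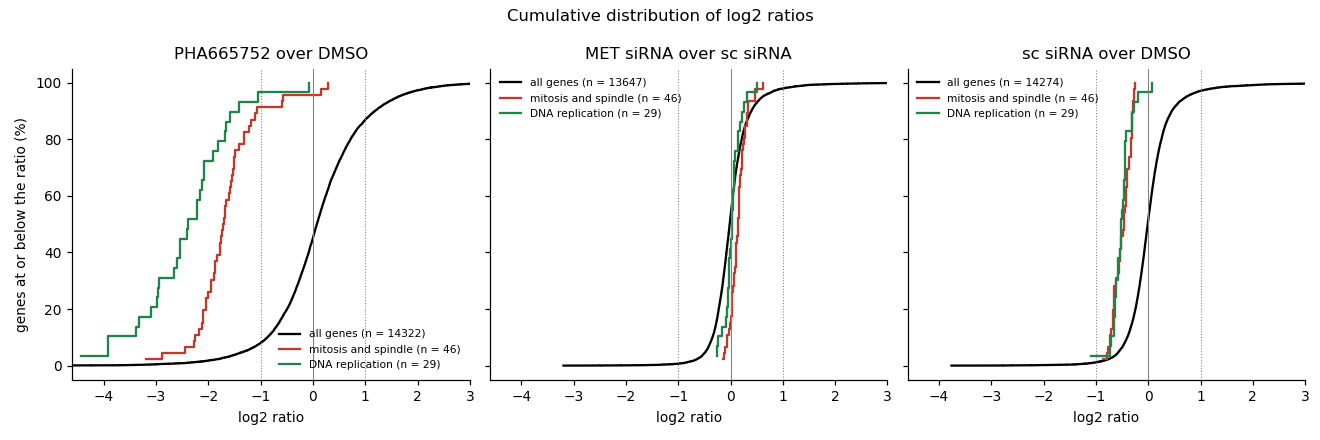
Cumulative share of genes (y axis, %) at or below each log2 ratio (x axis) in the 3 comparisons, for all named genes (black), 46 mitosis and spindle genes (red) and 29 DNA replication genes (green), with dotted lines at 2-fold and 1 array per condition. The red curve lies left of the black one by most for PHA665752 over DMSO (medians -1.71 and 0.075), left of it for sc siRNA over DMSO (-0.47 and -0.010) and slightly right of it for MET siRNA over sc siRNA (0.14 and -0.017), where the sign of the median changed with a scaling that shifts all genes alike.

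Other genes of the same structures were grouped in further lists. Of 29 kinetochore and centromere genes outside the 46, 22 were lower by more than 2-fold with PHA665752 and 0 higher, with a median log2 ratio of -1.71, from -2.79 for SKA3, the partner of SKA1, to -0.014 for CENPC, a constitutive centromere protein. Their median was 0.075 with MET siRNA over sc siRNA and -0.41 with sc siRNA over DMSO. Of 24 further genes of the spindle and cytokinesis, 18 were lower and 0 higher, with a median of -1.51, from -2.26 for KIFC1, a minus-end kinesin, to 0.94 for NUMA1, which anchors spindle poles and also serves in the interphase nucleus. Their median was 0.21 with MET siRNA over sc siRNA and -0.44 with sc siRNA over DMSO. The condensin genes, which compact chromosomes, had 6 of 8 lower and a median of -1.30, from -2.06 for NCAPD3 to -0.16 for NCAPH, whose value was a bound because its signal of 9.03 with PHA665752 was not well above background.

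The anaphase promoting complex and cohesin, which also work outside mitosis, had medians nearer to 0. The median of the tubulin genes was close to that of the condensin genes. Among 13 subunits and partners of the anaphase promoting complex, the ubiquitin ligase that CDC20 activates, 2 were lower by more than 2-fold, the E2 enzyme UBE2S (-1.42) and CDC27 (-1.29). The median was -0.29, and ANAPC16 was highest at 0.58. Of 10 cohesin genes 3 were lower, ESCO2 (-3.65), CDCA5 (sororin, -2.69) and SMC1A (-1.59). The median was -0.24, and STAG2 was highest at 0.49. ESCO2 and CDCA5 establish and hold cohesion after replication, whereas SMC1A is a subunit of the ring. Of 9 tubulin genes 5 were lower, with TUBG1, the gamma-tubulin that nucleates microtubules, at -1.99, TUBB4B at -1.52, TUBA1B at -1.51, TUBA1C at -1.24 and TUBB at -1.20. The other 2 past 2-fold were higher, TUBA4A at 1.37 and TUBB2B at 1.64, the latter on dim signals of 30.8 with DMSO and 82.5 with PHA665752. The median of the list was -1.20. Tubulin genes are close in sequence, and whether their probes also read each other's transcripts was not tested. The medians of these 3 lists with MET siRNA over sc siRNA were -0.20, -0.0079 and -0.095, and those with sc siRNA over DMSO were -0.13, -0.23 and -0.42.

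The DREAM and MMB complexes act on CHR and E2F elements to repress cell cycle genes in resting cells and to activate mitotic genes in dividing ones. Of 10 of their genes, 3 were lower by more than 2-fold with PHA665752 and 0 higher, namely RBL1 (p107, -2.08), LIN9 (-1.32) and TFDP1 (-1.19), and the median was -0.62. MYBL2 (B-Myb), the activator that joins the MMB complex, had dim signals of 25.1, 35.2, 22.2 and 19.7 on the DMSO, PHA665752, sc siRNA and MET siRNA arrays and the highest ratio of the list at 0.70. The medians of the list were -0.012 with MET siRNA over sc siRNA and -0.12 with sc siRNA over DMSO. The genes that restrain mitotic entry went separate ways with PHA665752. PKMYT1, a kinase that inhibits CDK1, had signals of 9923, 936, 5678 and 6776 and a ratio of -3.19, while WEE1, the other kinase of this kind, had 1695, 1403, 964 and 1397 and a ratio of -0.058. The CDK inhibitors CDKN1A (p21) and CDKN1B (p27) had ratios of -0.95 and 0.98. With MET siRNA over sc siRNA the ratios of PKMYT1, WEE1, CDKN1A and CDKN1B were 0.21, 0.49, -0.0076 and 0.28. With sc siRNA over DMSO they were -0.55, -0.56, 0.021 and -0.11.

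DNA replication genes act in S phase, earlier than mitosis, and 28 of 29 were lower by more than 2-fold with PHA665752. Their median log2 ratio was -2.40, with the middle 50% between -2.97 and -1.92, so that it lay below that of the mitosis and spindle genes at -1.71, and the middle ranges of the 2 groups met only at their edge, between -1.99 and -1.92. The lowest was MCM10, an initiator of replication, at -4.43, and the exception was GINS3 at -0.068. In the other comparisons the groups were closer, with medians of 0.021 and 0.14 for MET siRNA over sc siRNA and of -0.52 and -0.47 for sc siRNA over DMSO, replication genes given before the mitosis and spindle genes. There are no replicate arrays against which these differences between lists could be set.

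**Figure D5:**
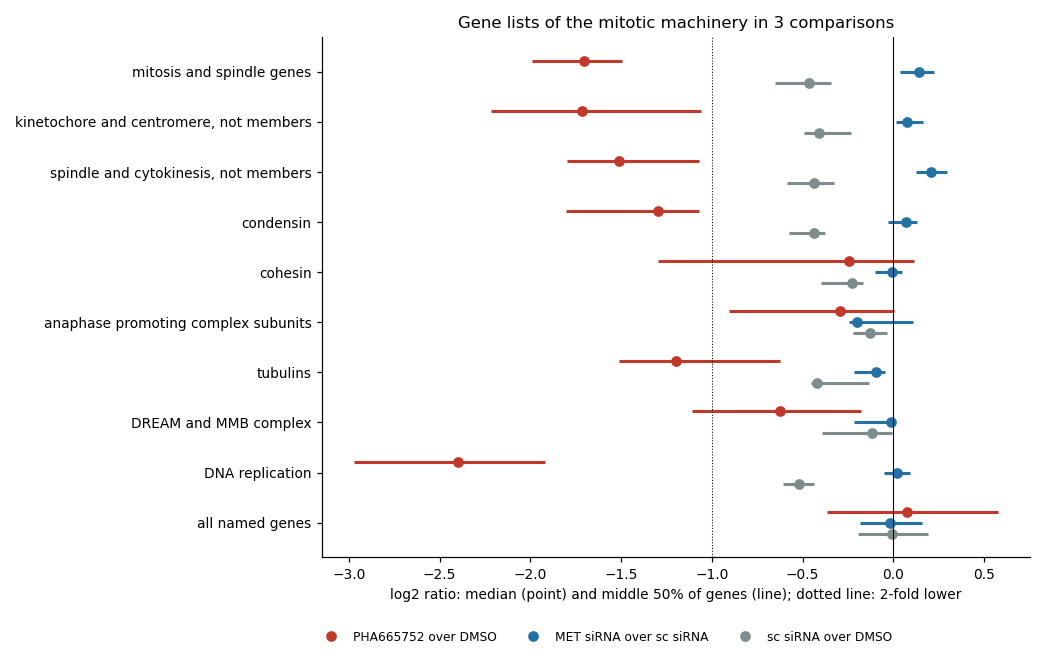
Median log2 ratio (points; x axis) and the middle 50% of genes (lines) for 9 gene lists and all named genes, 1 list per row, in the 3 comparisons with 1 array per condition; the dotted line marks 2-fold lower. With PHA665752 over DMSO the mitosis and spindle genes (-1.71) lie with further kinetochore (-1.71) and spindle (-1.51) genes, above DNA replication (-2.40) and below cohesin (-0.24) and the anaphase promoting complex (-0.29).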

How the data were processed

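Total RNA of the 4 Hs746T cultures was hybridised to single-colour (Cy3) Agilent human arrays. The intensity values are the processed signals the authors deposited, background-subtracted and corrected by Feature Extraction 11.5.1.1 per the file headers; the methods name another version and GeneSpring for later steps, which were not used here. The deposited value table equals these signals within 0.050 for the 33128 probes spotted on the array a single time.

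From 43118 noncontrol spots, those marked as outliers (1.69% to 5.58% per array) were dropped, spots of a probe were averaged, and log2 signals were set relative to the 75th percentile of each array over its 34127 probes, of which 25771 (75.5%) were named through RefSeq accessions or symbols. The brightest probe stood for a gene. Where a probe was above background on 1 array of a pair but not on the other, the lowest signal well above background on the other array, or the probe's own if higher, served as a bound. Log2 ratios past 1 were counted, beside the same count over all genes. Simulated data on 34127 probes, with 200 bright probes changed for PHA665752 over DMSO, gave back all 200 and 0 others. The changes put in were larger than 2-fold and the noise was that between spots alone. Full recovery was thus set by the design, and it checks the calculation and not the accuracy of the measured ratios. How variation between cultures affects the counts in the measured data was not tested.

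The 47 genes and all other lists were chosen with earlier results of these data known. Named were all of the 47, the highest and lowest of each other list for PHA665752 over DMSO, the brakes on mitotic entry, MYBL2 and MET; promoters were shown for genes with the largest decrease that hold a CHR element. Other genes named in a list with few past 2-fold, and all remarks on the order of the controls, were chosen after values were seen. The methods compare by fold change alone, and 1 array per condition allows no test. There were 9 alternatives of scaling, background correction, filter, values and probe choice. Python 3.11.15 (pandas 2.3.3), R 4.3.3 and limma 3.58.1 were used.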

Additional observations from a re-analysis of the deposited data

How the results depend on the processing

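No paired analysis was possible because each condition had 1 array and the groups share fewer than 2 replicate numbers; for the same reason no array could be left out. Under the 9 alternatives, 41 to 42 of the 46 genes were lower by more than 2-fold with PHA665752, and 0 passed 2-fold in the other comparisons. The median log2 ratio with PHA665752 moved to -1.95 when arrays were scaled by their 50th percentile and to -1.80 when scaled by the median of probes well above background. With the 50th percentile the median of sc siRNA over DMSO moved to -0.57. These scalings also shifted all genes, to -0.17 (PHA665752, 50th percentile) and -0.11 (sc siRNA over DMSO, 50th percentile). The median of MET siRNA over sc siRNA reversed, to -0.16, with the median of probes well above background, which put the median of all genes at -0.31. Relative to all genes, the medians ranged from -1.91 to -1.69 (PHA665752 over DMSO), 0.10 to 0.17 (MET siRNA over sc siRNA) and -0.50 to -0.42 (sc siRNA over DMSO). Alternatives that scale by a single value per array cannot move these differences, so the ranges come from the other alternatives. All 46 genes stayed below 0 for sc siRNA over DMSO under each alternative. With PHA665752 the ratio of CDC25B turned sign with the 50th percentile, to -0.09, and CENPF crossed 2-fold with quantile normalization, at -0.96. With MET siRNA 35 genes turned sign under an alternative, 7 of them under others than the median of probes well above background.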
